A study of Mus musculus with 19 samples.

Results

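TOX was expressed by force in CD8 T cells grown in culture, and the RNA of those cells was set against that of cells given a control vector. The comparison was defined by the labels alone and takes 4 of the 19 libraries of the series, 2 of TOX-GFP cells and 2 of GFP cells. All 4 came from splenocytes of C57BL/6 mice that carry the TCR SV40-I transgene, which gives their CD8 T cells a receptor for the SV40 large T antigen. Naive cells were activated with antibodies to CD3 and CD28, infected with a retrovirus that carried either TOX-GFP or GFP without TOX, grown on in IL-2, and sorted as CD8+ and GFP+. Activation, infection, IL-2 and the GFP sort were therefore shared by both groups, and the labels name no antigen or tumour for the culture. The labels do not give the promoter of the vector, the days in culture, or whether replicates are separate cultures, so the p-values below measure only the spread between these libraries. The other 15 libraries came from cells sorted from mice of the same strain. They form 5 groups of 3. Naive SV40-I cells were sorted as CD44low. Malignant liver lesions gave SV40-I cells on days 8 to 9, which were divided by PD1, LAG3 and CD39 into PD1hi/LAG3hi/CD39hi cells, called marker-high here, and PD1lo/LAG3lo/CD39lo cells, called marker-low. The headings of the deposited count tables call the marker-high libraries WT and the marker-low libraries KO. The labels name no knockout, so groups follow the labels, and a difference in genotype cannot be told apart from the sort in any marker-high value below. On days 20 to 21 malignant liver lesions also gave SV40-I cells and OT-I cells, called late here. The receptor of OT-I cells is specific for ovalbumin. The labels also name Thy1.1 as a sort marker of the SV40-I cells from lesions, and Ly5.1 as that of the OT-I cells.

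TOX is a nuclear protein of the HMG-box family that binds DNA and is needed in the thymus for CD4 T cell development. In CD8 T cells that meet antigen for a long time, as in tumours and chronic infection, TOX accumulates and is known for its part in the exhaustion programme, in which cells carry inhibitory receptors such as PD-1 and make less cytokine. Cultures activated and grown in IL-2 are instead a usual source of effector cells, which divide, carry granzymes and perforin, and let go of naive and memory genes such as Tcf7.

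Genes of mitosis and of sterol synthesis lay higher together in the TOX-GFP cultures. Promoters of 4 of them are shown because elements shared by such genes are well known. The windows are those of RefSeq on GRCm38.p6, run from 150 bases before to 50 bases after the annotated start, and are written 5′ to 3′ on the gene's strand. Capitals mark TTTGAA (the cell cycle homology element) and CCAAT (the box bound by NF-Y) in the mitotic genes, and TCACNCCAC (a sterol response element) and CCAAT in Hmgcs1. A motif on the opposite strand appears as its reverse complement, so CCAAT there reads ATTGG.
Plk1, chr7:122159285-122159484, plus strand: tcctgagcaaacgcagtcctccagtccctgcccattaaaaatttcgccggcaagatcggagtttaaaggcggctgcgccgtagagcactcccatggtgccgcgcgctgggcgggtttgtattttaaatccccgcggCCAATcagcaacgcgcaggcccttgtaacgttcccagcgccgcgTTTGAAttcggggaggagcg
Aurka, chr2:172370521-172370720, minus strand: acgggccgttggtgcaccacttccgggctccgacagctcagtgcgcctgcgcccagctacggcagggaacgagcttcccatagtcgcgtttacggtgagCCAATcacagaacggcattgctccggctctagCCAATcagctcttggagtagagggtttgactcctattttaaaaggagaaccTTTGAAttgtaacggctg
Cdk1, chr10:69352863-69353062, minus strand: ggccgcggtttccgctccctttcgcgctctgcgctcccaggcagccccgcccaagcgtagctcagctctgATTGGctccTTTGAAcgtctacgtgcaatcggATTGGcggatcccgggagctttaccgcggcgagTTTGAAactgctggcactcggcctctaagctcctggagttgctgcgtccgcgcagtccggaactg
Hmgcs1, chr13:119690201-119690400, plus strand: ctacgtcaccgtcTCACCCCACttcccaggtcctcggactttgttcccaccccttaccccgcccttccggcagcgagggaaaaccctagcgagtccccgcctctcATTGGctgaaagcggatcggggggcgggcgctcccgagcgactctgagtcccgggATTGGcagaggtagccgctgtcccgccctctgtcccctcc

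Searched on both strands over the full RefSeq windows of 250 bases before to 50 after the start, TTTGAA was found for 8 of the 24 cell cycle list genes with a promoter entry (33.3%) and for 20.2% of all 27025 genes with one. CCAAT was found for 21 of those 24 (87.5%) and for 6 of 7 sterol and lipid genes (85.7%), against 41.1% of all genes. These include Mcm2, Mcm3, Mcm5, Mcm7 and Pcna, which were not called in the tests below. They also include Srebf1, Srebf2 and Fasn, which overlapped between the cultures, so the motif was not limited to genes that lay higher. TCACNCCAC was found for 1 of the 7, Hmgcs1, against 1.44% of all genes. The 3 motifs do not overlap each other in the windows shown. These are matches of letters, and no binding was measured.

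The TOX-GFP libraries held 52627568 and 48924397 counts and the GFP libraries 44342549 and 45865596, all within the range of the series. Both TOX-GFP libraries were thus deeper than both GFP libraries. They also had more genes with a count (20122 and 20627 against 18790 and 19652). The sorted identity was checked with 8 CD8 T cell markers, each above 1 CPM (counts scaled to a common library size, as edgeR defines it). They summed to 5704 and 5596 CPM with TOX-GFP and to 7798 and 7947 CPM with GFP, so both TOX-GFP sums were lower. Macrophage, dendritic cell, neutrophil and erythroid markers summed to at most 7.35 CPM in any cultured library, and hepatocyte markers to at most 0.218 CPM. Stromal markers summed to between 31.4 and 39.0 CPM, nearly all Pecam1, with the collagen genes under 1 CPM. Markers of CD4 T cells summed to 14.9 and 18.6 CPM with TOX-GFP and 32.2 and 18.9 CPM with GFP. Those of B cells summed to 451 and 381 CPM with TOX-GFP and 689 and 773 CPM with GFP, nearly all Ighm, while Ms4a1 and Pax5 were at 0. The GFP libraries differed from each other more than the TOX-GFP libraries did: over 14614 genes the median absolute log2 difference was 0.32 between GFP 1 and GFP 2 and 0.17 between TOX-GFP 1 and TOX-GFP 2. By this median GFP 2 lay nearer to the TOX-GFP libraries (0.27 and 0.28) than to GFP 1. The Pearson correlation of log2 CPM gave the same order, at 0.975 and 0.977 with the TOX-GFP libraries and 0.969 with GFP 1. A chi-square per degree of freedom over the same genes put GFP 2 nearer to GFP 1 (75.8 against 80.6 and 80.5). A trend with gene length also ran with the groups. Among genes above 5 CPM, the median log2 fold change of TOX-GFP against GFP went from -0.27 for the 256 genes under 1 kb to 0.11 for the 1604 genes over 8 kb, and the GFP 1 against GFP 2 difference went from 0.17 to -0.11 over the same classes. A fit with a length term, added after this trend was seen, left medians between -0.06 and -0.01, and a call that it ends is given beside the gene.

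Tox itself (chromosome 4, 6686353 to 6991557, minus strand) was higher in both TOX-GFP libraries, at 157 and 118 CPM, than in both GFP libraries, at 13.9 and 21.4 CPM. The groups did not overlap, and the log2 fold change was 2.96 ± 0.26 (SE, n = 2 each). In edgeR's quasi-likelihood test, with Benjamini-Hochberg adjustment over all genes, Tox had an unadjusted p of 4.13e-05 and an adjusted p of 0.207, which misses the threshold of 0.05. DESeq2 gave an adjusted p of 5.61e-31. edgeR's adjusted p for Tox was 0.0179 when no filter on low counts was used and 0.0266 without TOX-GFP 2, 0.0133 without GFP 1 and 0.0202 without GFP 2. It missed the threshold without TOX-GFP 1 (0.111), with the stricter filter (0.0751) and with the replicate block (0.108). Reads from the coding sequence carried by the vector would be counted as Tox, so the vector's and the cell's own transcripts cannot be told apart.

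Scaled together with the other libraries, Tox averaged 115 ± 22.5 CPM (SD, n = 2) in TOX-GFP cells and 14.3 ± 4.50 CPM in GFP cells. Naive cells had 109.8 ± 18.8 CPM and marker-low cells 98.5 ± 43.8 CPM (n = 3 each), and their ranges overlapped that of TOX-GFP. Marker-high cells had 583 ± 205 CPM and late SV40-I cells 891 ± 163 CPM, and each of those libraries lay above both TOX-GFP libraries. Late OT-I cells, at 25.4 ± 6.16 CPM, and GFP cells were the lowest. Of the relatives of TOX, Tox4 stood at 236 and 218 CPM with TOX-GFP and 225 and 249 CPM with GFP, with overlap. Tox2 did not pass 0.653 CPM in any cultured library, and Tox3 was too low to test.

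**Figure D1:**
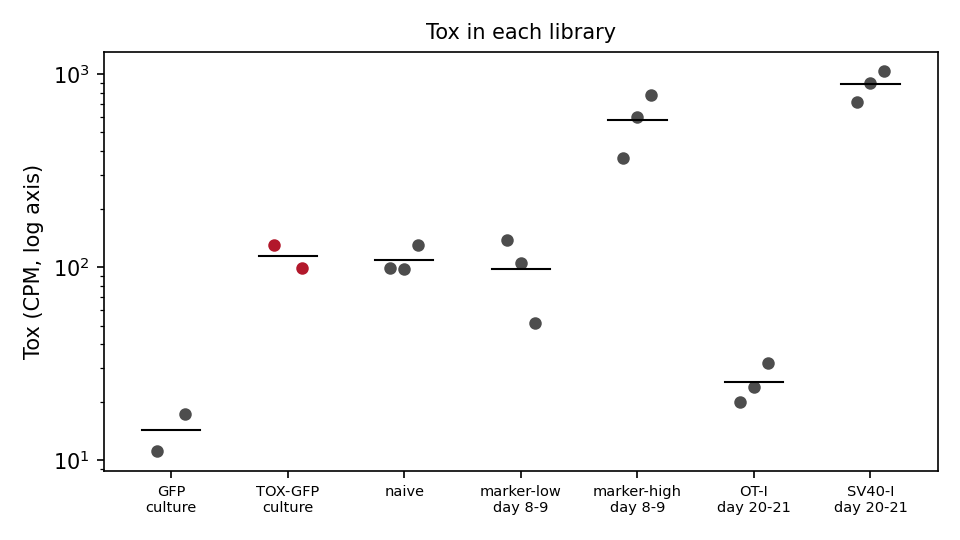
Tox in each of the 19 libraries (points) with the mean of each group (bars), in CPM on a log axis. The TOX-GFP libraries, at 99.2 and 131 CPM on this scale, lie near naive cells and below every marker-high and late SV40-I library, and the GFP libraries lie below 18 CPM.

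Across all genes edgeR called 0 of 14614 at an adjusted p under 0.05 (0% of the genes tested), with a smallest adjusted p of 0.207. At an unadjusted p under 0.05 it had 1216 genes higher with TOX-GFP (8.32%) and 690 lower (4.72%). DESeq2, which estimates the spread between 2 libraries in another way, called 418 higher (2.86%) and 142 lower (0.972%). limma-voom and edgeR with the length term called 0. The number of DESeq2 calls depended on the library left out: without TOX-GFP 1 they were 30 higher and 6 lower, without TOX-GFP 2 they were 10 and 0, without GFP 1 they were 530 and 200, and without GFP 2 they were 1290 and 581. With a TOX-GFP library left out, the spread comes from the GFP pair alone, which differed more than the TOX-GFP pair. Whether that lowered the number of calls was not tested. In the gene groups that follow, counts of calls are those of DESeq2, and edgeR called no gene of any list. Log2 fold changes are edgeR's, the value after ± is their standard error, and each group has 2 libraries, named in the order 1 and 2. Libraries of the groups did not overlap for 3550 genes higher with TOX-GFP (24.3%) and 3377 lower (23.1%), and the median log2 fold change of all genes was 0.01. Those are the shares against which the counts below are read.

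Genes of cell division lay higher in the TOX-GFP libraries. Of 28 cell cycle genes, all tested, 20 were higher without overlap and 1 lower, and DESeq2 called 15 higher and 0 lower. The median log2 fold change of the list was 0.53. Ccna2 (chromosome 3, 36564865 to 36572150), the cyclin of S phase and early mitosis, stood at 332 and 343 CPM with TOX-GFP and 162 and 167 CPM with GFP. The libraries of each group lay close together and far from the other group, and the log2 fold change was 1.03 ± 0.10 (SE, edgeR; DESeq2 adjusted p = 6.6e-10). Ccnb1, the mitotic cyclin, stood at 232 and 222 against 123 and 115 CPM (log2 0.93 ± 0.11, DESeq2 adjusted p = 3.17e-07). Top2a, which untangles DNA before chromosomes part, stood at 752 and 772 against 385 and 438 CPM (log2 0.89 ± 0.11, DESeq2 adjusted p = 8.55e-07). For both, each TOX-GFP library exceeded each GFP library.

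The kinases whose promoters are printed above also lay higher with TOX-GFP. Cdk1, which drives entry into mitosis, stood at 218 and 226 CPM against 155 and 105 CPM (log2 0.77 ± 0.19). Plk1, which acts at centrosomes and kinetochores, stood at 210.3 and 216 against 148 and 117 CPM (log2 0.68 ± 0.14). Aurka, a kinase of the spindle poles, stood at 189.9 and 187 against 108 and 92.1 CPM (log2 0.91 ± 0.13). None of the 3 overlapped between groups, and GFP 2 was the lowest library for each of them; DESeq2's adjusted p was 0.0073, 0.00466 and 6.73e-06. Aurkb, Bub1, Cdc20, Cenpe, Mki67, Rrm1, Rrm2 and the G1 cyclin Ccne1 were also called higher by DESeq2, with log2 fold changes from 0.49 (Rrm1, a subunit of ribonucleotide reductase) to 1.41 (Cenpe, a kinetochore motor). With the length term Rrm1 was no longer called (DESeq2 adjusted p = 0.101) and Ccnb2, a mitotic cyclin, was (0.0271).

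The called members were not all drivers of division. Cdkn2c, which encodes the inhibitor p18 of the G1 cyclin-dependent kinases, stood at 49.1 and 44.5 CPM with TOX-GFP and 29.3 and 25.8 CPM with GFP (log2 0.76 ± 0.15, DESeq2 adjusted p = 0.00382). It was higher in both TOX-GFP libraries. Ccnd2, a G1 cyclin, was the member that was lower without overlap, at 886 and 903 against 1129.7 and 1069 CPM (log2 -0.30 ± 0.10, DESeq2 adjusted p = 0.21), and was not called. Genes of the replication helicase and clamp (Mcm2, Mcm3, Mcm5, Mcm7 and Pcna) were not called either. Outside the list, mitotic genes named after their values were seen were higher in the same way: Hmmr, a spindle protein, stood at 101 and 109 against 41.4 and 45.8 CPM (log2 1.27 ± 0.13), and Kif11, a spindle motor, at 223 and 220.0 against 102 and 118 CPM (log2 1.01 ± 0.12). The list has a median transcript length of 4038 bases, near the 3628 of all genes, and in the fit with the length term its median log2 fold change was 0.63 with 15 called by DESeq2, out of 379 genes higher (2.59%) and 136 lower (0.931%) in all. Without TOX-GFP 1 or 2 the DESeq2 calls in the list were 2 and 0, and without GFP 1 or 2 they were 16 and 16 higher.

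Genes of sterol and lipid synthesis likewise lay higher with TOX-GFP. All 12 members were tested, 9 were higher without overlap and 0 lower, and DESeq2 called 6 higher, with a median log2 fold change of 0.60. Hmgcs1 (chromosome 13, 119690379 to 119708260), the enzyme that makes HMG-CoA for cholesterol synthesis, stood at 244 and 252 CPM with TOX-GFP and 116 and 116 CPM with GFP (log2 1.09 ± 0.10, DESeq2 adjusted p = 1.01e-10). Its libraries agreed closely within each group. Sqle, the squalene epoxidase of the same pathway, stood at 294 and 291 against 201 and 201 CPM (log2 0.54 ± 0.10, DESeq2 adjusted p = 0.00646). It was higher in both TOX-GFP libraries.

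Feedback and desaturation genes gave the same order of groups. Insig1, which holds back the processing of sterol regulatory factors, stood at 52.6 and 58.4 against 27.9 and 33.5 CPM (log2 0.86 ± 0.16, DESeq2 adjusted p = 0.000879). Scd2, a stearoyl-CoA desaturase, stood at 717 and 784 against 353 and 267 CPM (log2 1.28 ± 0.16, DESeq2 adjusted p = 1.43e-09). No library of one group reached the other for either gene. Idi1, at 18.7 and 19.5 against 11.1 and 13.2 CPM, and Fdft1, at 94.5 and 77.4 against 72 and 56.1 CPM, did not pass DESeq2's threshold although both TOX-GFP values lay higher. The regulators Srebf1 and Srebf2 and the fatty acid synthase gene Fasn overlapped between groups. Outside the list, Scd1, the related desaturase, stood at 8.63 and 13.1 against 2.35 and 1.76 CPM (log2 2.4 ± 0.33, DESeq2 adjusted p = 1.36e-07), Cyp51 at 365 and 336 against 222 and 201 CPM (log2 0.73 ± 0.11), and Acsl3, which activates fatty acids, at 20.9 and 28.1 against 9.12 and 11.2 CPM (log2 1.27 ± 0.23). The DESeq2 calls in the list were 2 and 2 without TOX-GFP 1 and 2, and 10 and 7 without GFP 1 and 2.

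**Figure D2:**
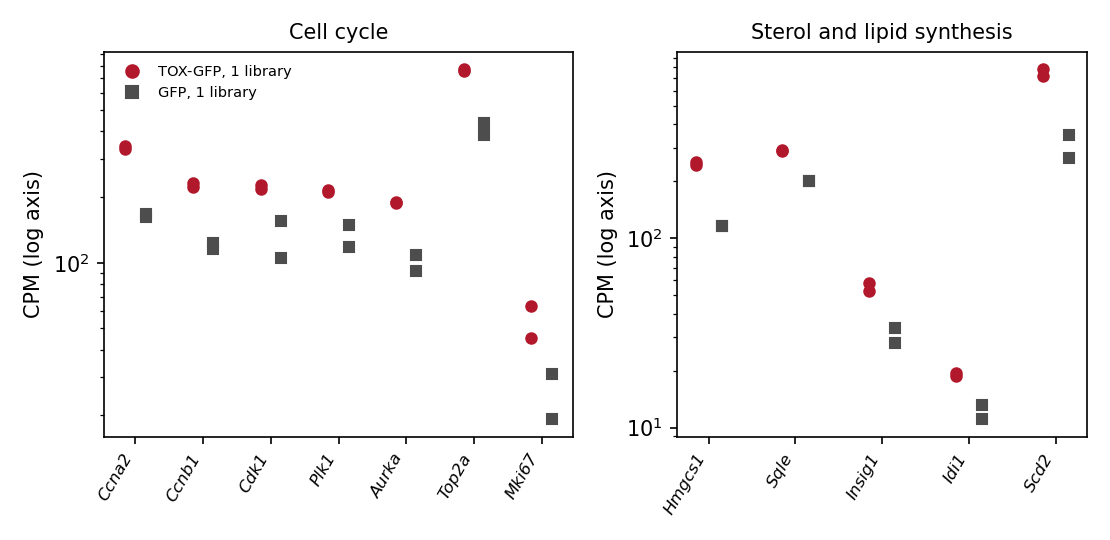
CPM of cell cycle genes (left) and of sterol and lipid genes (right) in each cultured library, on log axes, with TOX-GFP as circles and GFP as squares. Every TOX-GFP library lies above every GFP library for the genes drawn, and GFP 2 is the lowest library for Cdk1, Plk1, Aurka and Scd2.

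Genes of cell killing lay higher with TOX-GFP. Of 18 members, 15 could be tested, of which 12 were higher without overlap and 0 lower, and DESeq2 called 5 higher, with a median log2 fold change of 0.74. Gzma, a granzyme, stood at 672 and 720.0 CPM with TOX-GFP and 429.6 and 221 CPM with GFP (log2 1.1 ± 0.30, DESeq2 adjusted p = 0.00189). Gzmb, the main granzyme of effector cells, stood at 8302 and 7477 against 6012 and 3988 CPM (log2 0.66 ± 0.20, DESeq2 adjusted p = 0.0329). GFP 2 was the lowest library for both granzymes and GFP 1 lay between it and the TOX-GFP libraries. Lamp1, a lysosomal membrane protein that reaches the surface when granules are released, stood at 86.8 and 95.3 against 55.2 and 66 CPM (log2 0.59 ± 0.14, DESeq2 adjusted p = 0.0246). Gzmc and Serpinb6b, a serpin, were the other 2 called.

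Perforin, which opens the target membrane to granzymes, was uneven between the TOX-GFP libraries. Prf1 stood at 88.7 and 227 CPM with TOX-GFP and 52.4 and 37.2 CPM with GFP (log2 1.82 ± 0.45, DESeq2 adjusted p = 0.0954), so the groups did not overlap but TOX-GFP 2 lay far above TOX-GFP 1. Without TOX-GFP 2 its log2 fold change was 0.99. Serpinb9, the inhibitor of granzyme B that protects the killer cell, stood at 105 and 94.8 against 71.1 and 72.5 CPM (log2 0.48 ± 0.12), and Fasl, the death ligand, at 35.3 and 33.5 against 26.5 and 14.6 CPM (log2 0.74 ± 0.29). Neither passed DESeq2's threshold (0.0554 and 0.11). Without TOX-GFP 1 or 2 the DESeq2 calls in the list were 1 and 0, and without GFP 1 or 2 they were 7 and 5.

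Receptors shared with natural killer cells also lay higher with TOX-GFP. Only 9 of 16 passed the filter on low counts, 7 of them higher without overlap and 1 lower, and DESeq2 called 5 higher, with a median log2 fold change of 1.19. Klrb1c, the NK1.1 antigen, stood at 5.83 and 7.84 CPM with TOX-GFP and 0.566 and 1.20 CPM with GFP (log2 2.95 ± 0.45, DESeq2 adjusted p = 7.86e-07). Klrk1, the activating receptor NKG2D, stood at 19.8 and 22.4 against 10.0 and 8.45 CPM (log2 1.19 ± 0.20, DESeq2 adjusted p = 0.000175). Both were low in the GFP libraries and higher in each TOX-GFP library. Klrc1, which encodes the inhibitory NKG2A chain, stood at 9.49 and 13.1 against 4.82 and 3.79 CPM (log2 1.39 ± 0.28), Klre1 at 3.56 and 4.38 against 1.34 and 0.610 CPM (log2 2.03 ± 0.47), and Ly6c2 at 332 and 281 against 201 and 176 CPM (log2 0.70 ± 0.13). DESeq2's adjusted p was 0.00189, 0.0109 and 0.00192 for these 3, and Klrc1 and Klre1 belong to families with close copies, between which reads may have been split. Ly6c1, a near-identical neighbour of Ly6c2, was the member that was lower without overlap, at 2.19 and 2.20 against 4.10 and 2.90 CPM, so the split of reads between these 2 genes is uncertain. Markers of natural killer cells summed to 782 and 812 CPM with TOX-GFP and 472 and 259.96 CPM with GFP, mostly Gzma and Eomes, while Ncr1 and Tyrobp stayed under 1 CPM and Klra8 had no count in any cultured library; their part in the result was not tested. The calls in the list were 0 without either TOX-GFP library, and 6 and 4 without GFP 1 and 2.

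Of the 3 proteins used to sort cells from the lesions, RNA of 2 was higher with TOX-GFP without overlap, and DESeq2 called 1 of them. The median log2 fold change of the 3 was 0.83. It was 1.19 without GFP 1 and 0.46 without GFP 2. Entpd1 (chromosome 19, 40612366 to 40741602), which encodes the ectonucleotidase CD39, stood at 22.5 and 27.2 CPM with TOX-GFP and 14.7 and 10.8 CPM with GFP. Both TOX-GFP libraries lay higher, with a log2 fold change of 0.96 ± 0.22 and a DESeq2 adjusted p of 0.00671. Pdcd1 (chromosome 1, 94038305 to 94052553), which encodes PD-1, stood at 42.1 and 31.4 against 26.6 and 14.7 CPM. The groups did not overlap, but GFP 1 lay closer to TOX-GFP 2 than to GFP 2 (log2 0.83 ± 0.32, DESeq2 adjusted p = 0.0761), and the DESeq2 fit with the length term gave an adjusted p of 0.0372. Lag3 stood at 2.92 and 4.07 against 4.87 and 2.20 CPM with full overlap (log2 -0.02 ± 0.45), and its sign turned under several settings given in the closing section.

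Among 16 other inhibitory receptors, 15 were tested, 4 were higher without overlap and 3 lower, and DESeq2 called 2 higher and 0 lower. The counts without overlap lay near the shares of all genes, 24.3% higher and 23.1% lower. The median log2 fold change of the list was 0.04. It was -0.01 without GFP 1 and 0.16 without GFP 2. Havcr2, which encodes TIM-3, stood at 54 and 52.9 CPM with TOX-GFP and 27.2 and 18.4 CPM with GFP (log2 1.23 ± 0.22, DESeq2 adjusted p = 2.73e-05). Cd244, which encodes the receptor 2B4, stood at 14.6 and 10.5 against 5.18 and 4.53 CPM (log2 1.37 ± 0.26, DESeq2 adjusted p = 0.00117). For both, each TOX-GFP library exceeded each GFP library. Ctla4 went the other way in sign, at 112 and 112 against 129.5 and 174 CPM (log2 -0.44 ± 0.16, DESeq2 adjusted p = 0.155), and Cd160 stood at 42 and 27.3 against 25.5 and 14.8 CPM (log2 0.78 ± 0.33). Tigit, Btla, Lair1 and Cd5 were among those that overlapped, and Klrg1 was too low to test.

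Transcription factors linked to exhaustion were mixed. Of 17, 4 were higher and 4 lower without overlap, DESeq2 called 3 higher and 0 lower, and the median log2 fold change was 0.06. The counts without overlap lay near the shares of all genes, 24.3% higher and 23.1% lower. Eomes (chromosome 9, 118478212 to 118486132), a T-box factor of effector and exhausted cells, stood at 106 and 80.7 CPM with TOX-GFP and 43 and 37.3 CPM with GFP (log2 1.21 ± 0.18, DESeq2 adjusted p = 8.04e-07). Prdm1, which encodes the repressor Blimp-1, stood at 20.1 and 20.8 against 12.9 and 12.4 CPM (log2 0.69 ± 0.17, DESeq2 adjusted p = 0.0427). Id2, an inhibitor of E proteins, stood at 506 and 535 against 383 and 263 CPM (log2 0.69 ± 0.19, DESeq2 adjusted p = 0.0172). None of the 3 overlapped between groups. With the length term DESeq2's adjusted p for Prdm1 was 0.0833, which ends its call. Without TOX-GFP 1 or 2 the list held 0 and 1 calls higher, and without GFP 1 or 2 it held 3 and 2. Egr3, Egr2, Nr4a1 and Nr4a3, which are induced by the T cell receptor, were the 4 that were lower, and none was called by DESeq2, although Egr3 was at an adjusted p of 0.0484 with the length term.

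Effector factors leaned higher. Of 13, 9 were higher and 1 lower without overlap, with a median log2 fold change of 0.35, and the 2 calls were Prdm1 and Id2. Tbx21, which encodes T-bet, stood at 139 and 102 CPM with TOX-GFP and 99.3 and 76.1 CPM with GFP (log2 0.46 ± 0.20, DESeq2 adjusted p = 0.228), and Gfi1, a zinc-finger repressor, at 6.77 and 7.92 against 3.80 and 4.51 CPM (log2 0.82 ± 0.25). Both had higher TOX-GFP values and neither was called. Nfil3, a leucine-zipper factor named after its values were seen, stood at 185 and 253 against 109.8 and 113 CPM (log2 0.97 ± 0.17, DESeq2 adjusted p = 6.51e-05).

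Genes of naive and memory cells lay lower with TOX-GFP. All 16 were tested, 10 were lower and 1 higher without overlap, and DESeq2 called 7 lower and 0 higher, with a median log2 fold change of -0.49. Ccr7, the chemokine receptor for entry into lymph nodes, stood at 323 and 341 CPM with TOX-GFP and 449 and 526 CPM with GFP (log2 -0.55 ± 0.12, DESeq2 adjusted p = 0.0106). S1pr1, which guides exit from lymphoid organs, stood at 68.2 and 56.7 against 89.4 and 105 CPM (log2 -0.64 ± 0.15, DESeq2 adjusted p = 0.0151). Both of these trafficking genes were lower in both TOX-GFP libraries.

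The factors of the same list followed. Id3 stood at 87 and 82.9 against 128 and 128 CPM (log2 -0.59 ± 0.11, DESeq2 adjusted p = 0.00442), Lef1 at 151 and 144 against 189 and 223 CPM (log2 -0.48 ± 0.12, adjusted p = 0.0461), and Tcf7, which like Lef1 and TOX holds an HMG box, at 223 and 175 against 289 and 279.9 CPM (log2 -0.51 ± 0.14, adjusted p = 0.0496), the p-values being DESeq2's. Tcf7 is at the edge of the threshold, and with the length term its adjusted p was 0.0669. Cd27, a costimulatory receptor, was called as well (log2 -0.63 ± 0.16). Satb1 was the member higher without overlap, at 293 and 305 against 279 and 282 CPM (log2 0.09 ± 0.10), and its sign turned in the fit with the length term. Il7r, Klf2, Foxo1, Bach2 and Bcl2 overlapped between groups. No call in this list was left without TOX-GFP 1 or without TOX-GFP 2, and 8 and 7 were left without GFP 1 and 2.

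**Figure D3:**
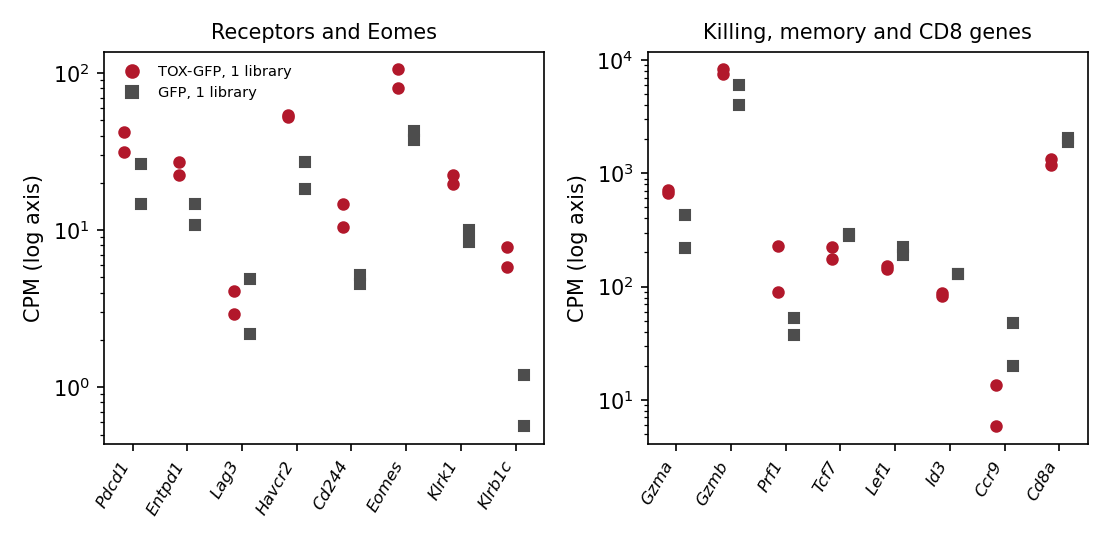
CPM of receptor genes with Eomes (left) and of killing, memory and CD8 genes (right) in each cultured library, on log axes, with TOX-GFP as circles and GFP as squares. The groups overlap for Lag3 and for no other gene drawn; Prf1 is spread between the TOX-GFP libraries, and Ccr9 within both groups.

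Chemokine receptors split by member. Of 10, DESeq2 called 3 higher and 2 lower, and 3 each way did not overlap. Ccr2, a receptor for inflammatory chemokines of the CCL2 kind, stood at 103 and 97 CPM with TOX-GFP and 42.3 and 32.8 CPM with GFP (log2 1.41 ± 0.16, DESeq2 adjusted p = 2.2e-10). Gpr183, an oxysterol receptor, stood at 19.5 and 18.8 against 10.8 and 10.3 CPM (log2 0.86 ± 0.18, DESeq2 adjusted p = 0.00843). Both were higher in both TOX-GFP libraries. Cxcr3, a receptor for interferon-induced chemokines, was lower, at 101 and 74.4 against 145 and 139 CPM (log2 -0.69 ± 0.17, DESeq2 adjusted p = 0.0108). So was the gut-homing receptor Ccr9, at 13.4 and 5.85 against 19.7 and 48.1 CPM (log2 -1.81 ± 0.55, DESeq2 adjusted p = 0.00158), with a wide spread within both groups.

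Cytokine genes split as well. Of 14, 10 were tested, and DESeq2 called 2 higher and 1 lower. Il10, which restrains inflammation, stood at 16.8 and 19.6 CPM with TOX-GFP and 10.1 and 6.01 CPM with GFP (log2 1.18 ± 0.29, DESeq2 adjusted p = 0.00668), and Il24, of the same family, at 49.6 and 63.6 against 31.2 and 20.1 CPM (log2 1.14 ± 0.25, DESeq2 adjusted p = 0.000705). Ltb, the membrane subunit of lymphotoxin, was lower, at 938 and 896 against 1695 and 1543 CPM (log2 -0.82 ± 0.10, DESeq2 adjusted p = 3.14e-06). None of these overlapped between groups. Tnf stood at 88.7 and 83.8 against 115 and 108 CPM (log2 -0.37 ± 0.12, DESeq2 adjusted p = 0.153), while Ifng stayed under 5 CPM in all 4 libraries and overlapped. Of 5 chemokine genes tested, DESeq2 called 0, and edgeR had 0 at an unadjusted p under 0.05. Among cytokine receptors, Il18r1 (14.7 and 17.3 against 9.73 and 8.30 CPM) and Il18rap (51.4 and 55.6 against 31 and 33.8 CPM), the chains of the interleukin-18 receptor, were the 2 of 19 that DESeq2 called, both higher (log2 0.83 ± 0.21 and 0.73 ± 0.14). The length term ended the call of Il18r1 (DESeq2 adjusted p = 0.0621).

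The co-receptor and signalling genes of the T cell receptor leaned lower. Of 18, 7 were lower and 3 higher without overlap, and DESeq2 called 3 lower and 0 higher, with a median log2 fold change of -0.22. Cd8a (chromosome 6, 71373427 to 71379173), the chain that defines the lineage, stood at 1333 and 1195 CPM with TOX-GFP and 1905 and 2065 CPM with GFP (log2 -0.65 ± 0.11, DESeq2 adjusted p = 0.000782), and Cd8b1 at 1367 and 1224 against 1904 and 1892 CPM (log2 -0.55 ± 0.11, DESeq2 adjusted p = 0.00513). Both chains stayed among the abundant transcripts in every library and were lower in both TOX-GFP libraries. Thy1 stood at 57.4 and 43.4 against 136 and 75.9 CPM (log2 -1.07 ± 0.30, DESeq2 adjusted p = 0.00383), with GFP 1 above GFP 2. The kinase gene Fyn, at 192 and 193 against 106 and 152 CPM (log2 0.57 ± 0.18), went the other way and was not called. In these bulk libraries fewer cells with a transcript and less of it per cell cannot be told apart. The calls in this list were 0 without either TOX-GFP library, and 5 and 9 lower without GFP 1 and 2.

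Other lists held few calls. The stress list had 2 of 13 lower, Ddit3, which encodes the factor CHOP, at 33 and 36.9 against 69.9 and 63 CPM (log2 -0.93 ± 0.14, DESeq2 adjusted p = 4.42e-05), and Trib3, its target, at 603 and 611 against 910.3 and 841 CPM (log2 -0.53 ± 0.10, DESeq2 adjusted p = 0.00665). Of the apoptosis genes DESeq2 called 2 of 12 higher, among them Pmaip1, which promotes cell death (log2 0.68 ± 0.19). Socs3, an inhibitor of cytokine signals, was the call among 12 STAT and SOCS genes (log2 -0.61 ± 0.13), and Itgav, the integrin chain alpha V, that among 13 residency genes (log2 0.97 ± 0.19). Feedback genes of the T cell receptor gave 2 higher calls, Ubash3b (log2 1.29 ± 0.24) and Dusp5 (log2 0.67 ± 0.17), and Dusp10 lower (log2 -0.64 ± 0.15). DESeq2 called 0 of 17 glycolysis genes and 0 of 17 genes of oxidative phosphorylation, whose median log2 fold changes were 0.08 and -0.07; edgeR had 3 and 0 of them at an unadjusted p under 0.05. Foxp3, the factor of regulatory T cells, was low and lower still with TOX-GFP, at 0.343 and 0.713 against 2.81 and 2.85 CPM (DESeq2 adjusted p = 0.00591). Of 12 costimulatory receptors DESeq2 called Tnfrsf8 higher and Cd2 lower, of 16 genes induced by the T cell receptor it called Jund higher, of 15 chromatin genes Dnmt1 higher and Kmt2a lower, and of 16 interferon genes Irf9 lower. With the length term Cd2 and Dnmt1 were not called (DESeq2 adjusted p = 0.0719 and 0.174).

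Genes of ribosomal proteins, a list added after their values were seen, lay lower with TOX-GFP. Of 83 tested, 78 were lower without overlap and 0 higher, and DESeq2 called 29 lower, with a median log2 fold change of -0.40. Rps27 stood at 96.5 and 102 CPM with TOX-GFP and 165 and 171 CPM with GFP (log2 -0.76 ± 0.11, DESeq2 adjusted p = 6.51e-05), and Rps19 at 454 and 459.9 against 676 and 668 CPM (log2 -0.56 ± 0.09). Their share of all counts was 2.42% and 2.55% with TOX-GFP and 3.31% and 3.20% with GFP. These transcripts are short, with a median length of 1739 bases. In the fit with the length term the median was -0.32 and the calls 18, and the 29 calls became 0 without either TOX-GFP library, 36 without GFP 1 and 63 without GFP 2.

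**Figure D4:**
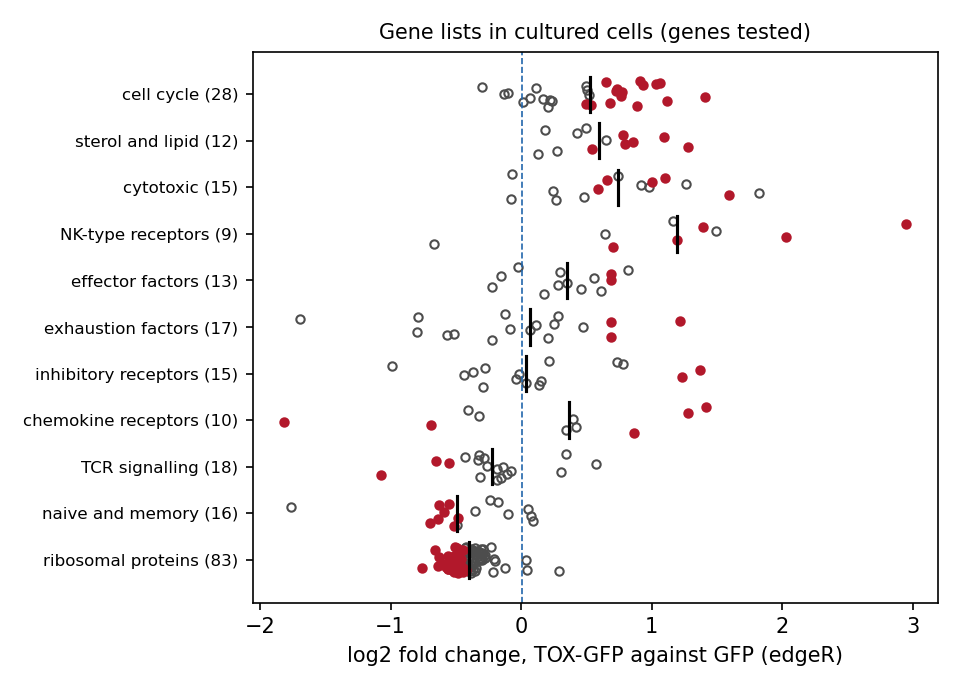
log2 fold change of TOX-GFP against GFP for each tested member of 11 lists, with members that DESeq2 called as filled points, the list median as a black bar and the median of all genes as a dashed line. Medians run from 1.19 for NK-type receptors to -0.49 for naive and memory genes, and ribosomal proteins crowd around -0.40.

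In and outside the lists, the largest differences among genes that DESeq2 called, with no overlap and at least 10 CPM in the higher group, were named by a rule. After Tox the highest were Scd1, described above, and Pif1, a DNA helicase, at 21.6 and 20.5 CPM with TOX-GFP and 8.80 and 2.63 CPM with GFP (log2 1.88 ± 0.53). Tnfrsf8, which encodes CD30, followed at 18.4 and 54.3 against 12.4 and 9.82 CPM (log2 1.71 ± 0.50), where TOX-GFP 2 lay far above TOX-GFP 1, and without TOX-GFP 2 its log2 fold change was 0.73. Then came Tmem163 (log2 1.66 ± 0.22), Serpinb6b (log2 1.59 ± 0.45), Lrrk1, a kinase (log2 1.59 ± 0.47), Suv39h2, a histone methyltransferase (log2 1.49 ± 0.34), Esm1 (log2 1.42 ± 0.29), Ccr2, Cenpe and Klrc1. At the low end, below Ccr9, were Tspan32, a tetraspanin at 25.3 and 21.8 against 51.6 and 49.6 CPM (log2 -1.1 ± 0.15), Thy1, Arl5c (log2 -1.0 ± 0.22), Ifit1bl1 (log2 -0.95 ± 0.27), Ddit3, Adck3 (log2 -0.92 ± 0.23), P2rx4, an ATP-gated channel (log2 -0.90 ± 0.19), and Rsad1 (log2 -0.89 ± 0.22). The rule also gave 3 loci with clone names that carry no annotated role, RP23-357I14.1, AC102483.1 and RP23-43M4.1, with log2 fold changes of -1.1, -0.89 and -0.88. Pif1, Lrrk1 and Tspan32 had DESeq2 adjusted p of 0.00168, 0.00294 and 2.24e-06. The call of Ifit1bl1 was lost with the length term (DESeq2 adjusted p = 0.063).

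The design also allows the effect of forced TOX to be set beside the differences found in lesions, which share no library with it. At days 8 to 9 marker-high cells, in which Tox was higher (log2 2.57 ± 0.35, edgeR adjusted p = 0.00263), were compared with marker-low cells; edgeR called 133 genes higher (0.715% of 18608) and 178 lower (0.957%). Of the 418 genes that DESeq2 called higher in culture, 20 were among the 115 of those higher genes that were tested in both, which is 4.78% of the former and 17.4% of the latter. Among them were Tox and Entpd1, the granzyme genes Gzma and Gzmb, Il10, and genes of division such as Aurka, Plk1 and Rrm1. Of the 142 called lower in culture, 10 were among the 170 called lower in marker-high cells (7.04% and 5.88%), among them Lef1, Tcf7 and Id3. Genes called in opposite directions were 4 higher in culture (Gpr183, Rnf145, Txndc5 and RP23-284K1.6) and 1 lower in culture, Cd8a. For comparison, 0.788% and 1.16% of all genes tested in both fits were called higher and lower in marker-high cells.

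The difference between the 2 effects was itself tested in a fit of all 19 libraries, with edgeR and adjustment over 18608 genes. For Tox it was 0.44 ± 0.53 (culture minus days 8 to 9, adjusted p = 1.00), and for Pdcd1 -1.46 ± 0.56 (adjusted p = 0.929), with a fold change of 0.89 ± 0.44 in culture and 2.34 ± 0.37 in the lesions on the log2 scale. Entpd1 stood at 1.01 ± 0.58 and 2.85 ± 0.50, and Lag3 at 0.04 ± 0.53 and 1.36 ± 0.44. None of these differences passed the threshold, which with these intervals does not show that the effects are alike. The difference passed for 5 of the 18608 genes, 4 higher in culture relative to the lesions (0.0215%) and 1 lower (0.00537%). Cd8a was lower with TOX-GFP (log2 -0.60 ± 0.20) and higher in marker-high cells (log2 1.01 ± 0.16), a difference of -1.61 ± 0.25 (adjusted p = 0.0483). Aqp3, a water and glycerol channel, stood at -0.06 ± 0.36 in culture on the log2 scale and was lower in marker-high cells (log2 -3.69 ± 0.32), and Nfkbid, an inhibitor of NF-kappa B, stood at 0.21 ± 0.34 and -3.39 ± 0.30. The other 2 were the clone-named locus RP23-284K1.6 and H2-Q2, a class I gene with near-identical copies. Cd8a did not pass without any 1 of the cultured libraries. No call was left without GFP 1 or without GFP 2.

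At days 20 to 21 SV40-I cells, set against OT-I cells, were compared in the same way. These cells also differ in their receptor and in their sort marker, Thy1.1 against Ly5.1. In the lesions themselves edgeR called 941 genes higher (5.06%) and 801 lower (4.3%) in SV40-I cells. Of the 418 genes that DESeq2 called higher in culture, 32 were among the 844 called higher in late SV40-I cells and tested in both (7.66% and 3.79%), among them Tox, Entpd1, Havcr2, Gzma and Il10. Another 29 were among the 758 called lower (6.94% and 3.83%), among them Ccr2, Klrk1, Id2 and Sqle. Of the 142 called lower in culture, 22 were lower in late cells too (15.5% and 2.9%), such as Ccr7, S1pr1, Lef1 and Tcf7, and 10 were higher (7.04% and 1.18%). Of all genes tested in both fits, 5.78% were called higher and 5.19% lower in late SV40-I cells, so for the genes higher in culture both shares lay near the background. The test of culture minus late effect called 219 genes higher (1.18%) and 181 lower (0.973%). Pdcd1 was higher by 5.3 ± 0.42 in late SV40-I cells and by 0.89 ± 0.44 with TOX-GFP (log2), a difference of -4.42 ± 0.59 (adjusted p = 0.000756). Lag3 was higher by 5.36 ± 0.52 in late cells and stood at 0.04 ± 0.53 with TOX-GFP, a difference of -5.32 ± 0.74 (adjusted p = 0.000974). For Tox the late effect was 5.13 ± 0.40 and the difference from culture -2.12 ± 0.54 (adjusted p = 0.0556), which misses the threshold, while the stricter filter (0.0399) and DESeq2 (0.0057) passed it. Several genes that lay higher with TOX-GFP were lower in late SV40-I cells: Klrk1 (log2 1.24 ± 0.46 and -1.59 ± 0.38, adjusted p of the difference 0.0214), Id2 (0.74 ± 0.43 and -1.53 ± 0.35, 0.0484), Itgb1 (0.55 ± 0.48 and -3.41 ± 0.43, 0.0035) and Il18rap (0.77 ± 1.14 and -6.81 ± 1.19, 0.0264). Klrb1c stood at 2.99 ± 0.56 and -1.32 ± 0.41 (0.00324). Cd8a (-0.60 ± 0.20 and 1.28 ± 0.16, 0.00086) and Dusp10 (-0.59 ± 0.24 and 0.78 ± 0.19, 0.0289) lay lower in culture and higher in late cells. These p-values are edgeR's, adjusted over 18608 genes.

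**Figure D5:**
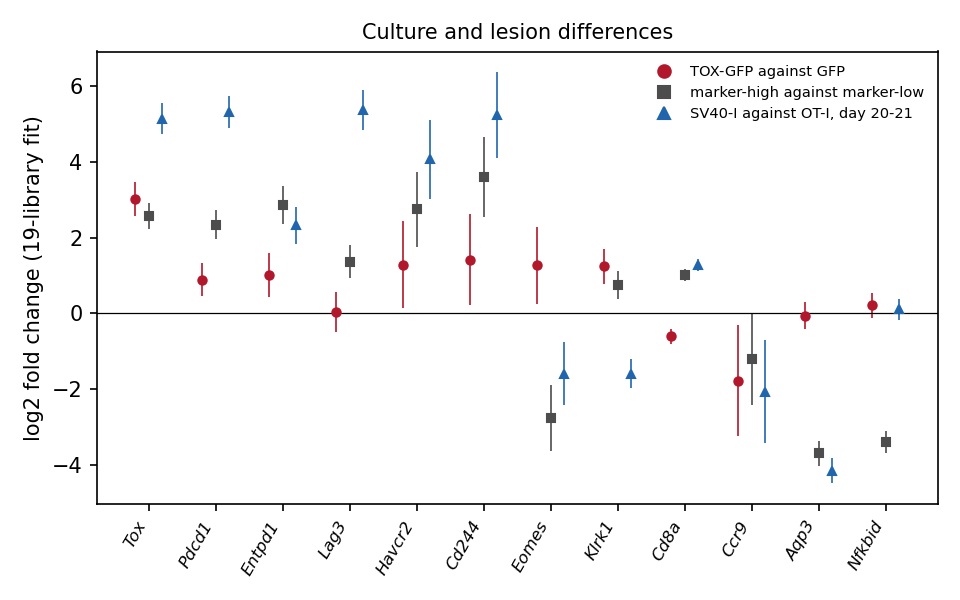
log2 fold change with its standard error for 12 genes in the 19-library fit, for TOX-GFP against GFP (circles), marker-high against marker-low at days 8 to 9 (squares) and SV40-I against OT-I at days 20 to 21 (triangles). Tox is higher in all 3 comparisons, and Pdcd1 and Lag3 lie higher in the comparison at days 20 to 21 than in culture. Cd8a is below 0 in culture and above 0 in both lesion comparisons.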

How the data were processed

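The authors deposited whole-number counts of read pairs per gene, not normalized, made with featureCounts 1.6.2 in paired mode, with GENCODE M17 on GRCm38.p6, by gene name and without a strand option, per the file headers. FastQC, STAR and DESeq2 are named in the submitters' processing notes, with versions not given in the sources used here. Without strand, overlapping and antisense genes cannot be told apart, and close gene copies may share reads; libraries were amplified and carry no molecular identifiers.

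Samples were grouped by the labels. The 4 cultured libraries were fitted alone in R 4.3.3 with edgeR 4.0.16 (TMM, filterByExpr, robust quasi-likelihood F test), 14614 of 53656 genes being tested. All 19 libraries were fitted for the differences between effects, over 18608 genes. Calls are at a Benjamini-Hochberg adjusted p under 0.05. DESeq2 1.42.0 and limma 3.58.1 were alternatives. The length term is a lowess fit of library deviations on log2 gene length, chosen after seeing the data. CPM are TMM-scaled; sums of marker genes are CPM of the raw totals. Fold changes include edgeR's prior count, and their errors are worked back from the F statistic. The culture fits of edgeR and DESeq2, and edgeR's fits of the differences between effects, were tested on simulated counts with known changes. Each simulated library had the same spread, unlike the TOX-GFP and GFP pairs here. The other fits were not simulated.

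Genes named were Tox, the 3 sort markers, the 2 members of each of 27 T cell lists with the smallest p, and up to 12 largest called rises and falls. edgeR called 0, so the last part was applied to DESeq2's calls. Some list genes count in the list totals but are not reported here by name. All other genes named, and ribosomal proteins as a list, were chosen after their values were seen. Members and lists were chosen with earlier results of these data known. For a gene without counts, 3 counts is the upper limit, or 0.0570 to 0.0677 CPM in the cultured libraries, which covers counting error only. The labels do not say whether replicate numbers pair the libraries. The correlation of replicate deviations was 0.05, which cannot settle this.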

Additional observations from a re-analysis of the deposited data

Results flagged for a closer look

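The effect of forced TOX in culture differed, in edgeR's test of the difference over 18608 genes, from the marker-high effect at days 8 to 9 for 5 genes. The differences on the log2 scale were 12.22 for RP23-284K1.6, 5.53 for H2-Q2, 3.63 for Aqp3, 3.6 for Nfkbid and -1.61 for Cd8a. RP23-284K1.6, a locus on chromosome 7, averaged 5.62 CPM with TOX-GFP, 1.45 CPM with GFP, 0.0356 CPM in marker-high cells and 47.1 CPM in marker-low cells. Its lesion fold rests on counts near 0 in marker-high cells and depends on the prior count. H2-Q2 averaged 0.611 CPM with TOX-GFP, 0.0902 CPM with GFP, 0.700 CPM in marker-high cells and 4.92 CPM in marker-low cells, and shares sequence with other class I genes. Nfkbid averaged 33.0, 28.5, 66.5 and 695 CPM and Aqp3 5.86, 6.08, 3.16 and 40.7 CPM in the same order of groups.

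From the lesion effect at days 20 to 21 the culture effect differed for the named genes Pdcd1 (-4.42), Lag3 (-5.32), Cd8a (-1.88) and Dusp10 (-1.37). These were lower in culture relative to the lesion effect. The culture effect differed the other way for Il18rap (7.59), Klrb1c (4.31), Itgb1 (3.96), Klrk1 (2.83) and Id2 (2.27). Each passed an adjusted p of 0.05 in edgeR. No explanation of these differences was tested.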

How the results depend on the processing

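With 2 libraries a group, counts of calls depended on the tool and on the library left out. For TOX-GFP against GFP, edgeR called 0 higher and 0 lower with TMM, with DESeq2 size factors and with the stricter filter. The same held with the length term, without robust estimation and with the spread of all 19 libraries. limma-voom also called 0 higher and 0 lower. With no filter edgeR called 6 higher and 0 lower. DESeq2 called 418 higher and 142 lower, and with the length term 379 and 136. Leaving out a library gave 0 to 1021 higher and 0 to 379 lower in edgeR, the most without GFP 2. In DESeq2 it gave 30, 10, 530 and 1290 higher and 6, 0, 200 and 581 lower, without TOX-GFP 1, TOX-GFP 2, GFP 1 and GFP 2. When an arm keeps 1 library, that library is assumed to vary like the other group.

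For culture minus days 8 to 9, the calls were 4 higher and 1 lower; with DESeq2 size factors 0 were lower, with the stricter filter 0 were lower, and DESeq2 called 115 higher and 40 lower. Leaving out a library gave 0 to 7 higher and 0 to 3 lower. For culture minus days 20 to 21, DESeq2 called 548 higher and 547 lower, and leaving out a library gave 69 to 209 higher and 50 to 144 lower.

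For TOX-GFP against GFP the replicate block gave 0 higher and 0 lower after adjustment, as without it. For days 8 to 9 the replicate block gave 3 higher and 0 lower, and for days 20 to 21 162 higher and 117 lower. The replicate deviations of the groups correlated at 0.05, so the numbers are not shown to pair the libraries.

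In TOX-GFP against GFP, signs turned for 5 genes named, none of them called there by edgeR or DESeq2. Lag3 (-0.02) was 0.067 under the replicate block, 0.053 with the length term in edgeR and in DESeq2, 0.076 with limma-voom and 0.039 in the 19-library fit. Without a library it ran from -0.49 to 0.66, with 0.21 and 0.66 on the other side of 0 in edgeR and 0.20 and 0.66 in DESeq2. Tox2 (-0.22) was 0.29 under the replicate block and 0.39 with limma-voom, and without a library it ran from -1.38 to 2.65, reaching 0.42 and 2.65 in edgeR and 0.42 and 2.72 in DESeq2. Tox4 (-0.06) ran from -0.136 to 0.0025 and reached 0.0042 in DESeq2, both without GFP 2. Aqp3 (-0.10) ran from -0.427 to 0.159 and reached 0.16 without TOX-GFP 2 and 0.12 without GFP 1 in both tools. Satb1 (0.09) was -0.0295 with the length term in both. The cause of these changes was not tested.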

Other observations

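Immunoglobulin transcripts differed between the cultures, an observation made after the values were seen. Igkc, the kappa constant gene, stood at 6.69 and 3.85 CPM with TOX-GFP and 0.181 and 0.0218 CPM with GFP. Ighv6-3, a heavy chain variable segment, stood at 2.02 and 1.63 against 0.0905 and 0.0218 CPM. Their log2 fold changes, 5.68 ± 0.78 and 4.97 ± 0.72, were larger than that of Tox (2.96 ± 0.26). Both genes were near 0 in the GFP libraries, so these folds rest on few counts and depend on the prior count. Ighm, the mu constant gene, was abundant and went the other way, at 446 and 372 against 683 and 765 CPM (log2 -0.83 ± 0.13, DESeq2 adjusted p = 6.63e-05). Ms4a1 and Pax5 had 0 counts in all 4 cultured libraries, Cd79a stayed under 1 CPM, and Cd79b stood at 6.25 and 7.62 CPM with TOX-GFP and 6.56 and 6.58 CPM with GFP.

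Among other genes lower with TOX-GFP, Limd2 stood at 666 and 664 against 1002 and 1039 CPM (log2 -0.62 ± 0.10) and Plac8 at 256 and 269.5 against 421 and 397 CPM (log2 -0.64 ± 0.10), neither in a list. Among genes higher, Lmnb1, a nuclear lamin, stood at 164 and 163 against 74.8 and 84.1 CPM (log2 1.04 ± 0.12), and Prc1, which bundles the central spindle, at 183 and 209 against 101 and 98.1 CPM (log2 0.98 ± 0.12). DESeq2's adjusted p was 0.000596, 0.000721, 3.76e-08 and 3.17e-07. Both TOX-GFP libraries lay on the same side of both GFP libraries for each of the 4.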
